A study of Mus musculus with 12 samples.

Results

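The 8 genes described here encode enzymes and receptors of the leukotriene pathway and a pair of related phospholipases. They were chosen by symbol, as the rows for Alox5, Alox5ap, Lta4h, Ltc4s, Ltb4r1, Cysltr1, Pla2g7 and Pla2g15 among 55335 genes, and all 8 were measured and passed the filter on low values. RNA was sequenced from BMDMs, the macrophages that mouse marrow cells give rise to in culture (bone marrow-derived), in 12 libraries of 4 groups with 3 libraries each. The groups were wild-type control, wild-type with LPS+ATP, Nlrp3-/- control and Nlrp3-/- with LPS+ATP. The wild-type cells came from C57BL/6 mice and the other cells from mice lacking Nlrp3, bought from a different supplier. The methods give 8 weeks as the age of the C57BL/6 mice used for culture, and no separate age for Nlrp3-/- mice. All 4 groups were cultured for 7 days with macrophage colony-stimulating factor, and control cells received neither agent. Lipopolysaccharide (LPS) primes the NLRP3 inflammasome, and extracellular ATP triggers it through the P2X7 receptor. The sample labels give LPS for 4 hours followed by ATP for 30 minutes, whereas the methods give 12 hours and 2 hours. The methods say of the study in general that sample sizes count independent replicates, and the sources used here do not say whether the 3 libraries of a group came from separate mice or separate cultures. The p-values therefore measure the spread between these libraries, which may be technical.

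Leukotrienes are lipid mediators that leukocytes make from arachidonic acid released from membrane phospholipids by phospholipase A2 enzymes. The 5-lipoxygenase encoded by Alox5, aided by the membrane protein FLAP encoded by Alox5ap, converts arachidonic acid into the unstable leukotriene A4. Leukotriene A4 hydrolase (Lta4h) turns it into the neutrophil attractant leukotriene B4, and leukotriene C4 synthase (Ltc4s) joins it to glutathione to give the first cysteinyl leukotriene. Leukotriene B4 is sensed by BLT1 (Ltb4r1), and cysteinyl leukotrienes are sensed by CysLT1 (Cysltr1). Pla2g7 encodes the secreted hydrolase of platelet-activating factor, and Pla2g15 encodes the lysosomal phospholipase A2.

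Of the 8 genes, 6 were matched by symbol in the RefSeq promoter table for GRCm38.p6, all but Alox5ap and Cysltr1. Each entry holds 300 bases, from 250 before the RefSeq start of the gene to 50 after it. The 4 given here were picked after their values were seen: Alox5 and Pla2g15, which fell with LPS+ATP in both genotypes, Pla2g7, which rose, and Ltb4r1, whose response differed between genotypes. Each is written 5′ to 3′ on the strand of its gene. The capitals mark a GC box (GGGCGG, the core of Sp1 sites) or a PU.1 core (GAGGAA, PU.1 being a transcription factor of myeloid cells), as these letters or as their reverse complement.
The Alox5 window lies on the minus strand at chr6:116461129-116461428, Ltb4r1 on the plus strand at chr14:55765712-55766011, Pla2g7 on the plus strand at chr17:43568201-43568500, and Pla2g15 on the plus strand at chr8:106150104-106150403.
Alox5: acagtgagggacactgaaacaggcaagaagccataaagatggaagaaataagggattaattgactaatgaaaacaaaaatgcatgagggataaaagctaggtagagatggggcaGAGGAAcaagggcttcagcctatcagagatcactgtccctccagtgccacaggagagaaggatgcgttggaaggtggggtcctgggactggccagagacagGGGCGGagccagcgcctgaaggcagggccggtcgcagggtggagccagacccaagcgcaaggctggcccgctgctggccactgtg
Ltb4r1: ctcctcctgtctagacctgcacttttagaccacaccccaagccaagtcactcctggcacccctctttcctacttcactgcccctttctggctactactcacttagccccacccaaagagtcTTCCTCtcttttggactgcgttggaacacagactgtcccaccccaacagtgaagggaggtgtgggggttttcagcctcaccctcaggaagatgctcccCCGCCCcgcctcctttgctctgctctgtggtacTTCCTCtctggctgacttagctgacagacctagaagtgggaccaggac
Pla2g7: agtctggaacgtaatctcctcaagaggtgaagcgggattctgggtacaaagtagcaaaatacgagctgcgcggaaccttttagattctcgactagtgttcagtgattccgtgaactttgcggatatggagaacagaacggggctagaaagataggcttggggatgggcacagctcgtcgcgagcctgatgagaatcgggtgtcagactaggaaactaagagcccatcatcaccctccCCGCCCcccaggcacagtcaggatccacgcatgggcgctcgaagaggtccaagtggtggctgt
Pla2g15: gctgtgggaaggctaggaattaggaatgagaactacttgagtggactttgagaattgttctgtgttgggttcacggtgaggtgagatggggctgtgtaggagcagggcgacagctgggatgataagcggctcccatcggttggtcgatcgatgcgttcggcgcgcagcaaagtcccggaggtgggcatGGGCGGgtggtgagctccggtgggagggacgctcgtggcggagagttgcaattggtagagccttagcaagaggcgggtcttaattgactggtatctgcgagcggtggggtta

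A GC box was found once in each of these 4 windows and in 35.7% of all 32851 promoters of the table, with both strands searched. The PU.1 core was found once in the Alox5 window and at 2 places in the Ltb4r1 window, once in those of Lta4h and Ltc4s, and in 28.3% of all promoters. The Pla2g7 and Pla2g15 windows, whose genes moved in opposite directions with LPS+ATP, both held 1 GC box and no PU.1 core. The E-box CACGTG (7.15% of all promoters), the AP-1 site TGANTCA (7.81%) and the NF-kB motif (8.46%) were found in none of the 6 windows. These matches describe letters in a window and show no binding.

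The members were compared as FPKM, in which fragments are scaled by gene length and by the mapped fragments of the library, as the authors deposited them. FPKM is scaled by length, so levels may also be compared between genes. Differences between groups were tested on log2(FPKM + 1) with limma in 1 fit of the 4 group means, and a gene was called at a Benjamini-Hochberg adjusted p under 0.05 over 12622 tested genes. Fold changes on this scale understate the change of genes with low FPKM, so the ratio of mean FPKM is given beside them, with the standard error (SE) from the fit. Nlrp3 was 9.24 to 10.1 FPKM in wild-type control, 32.1 to 33.6 FPKM in wild-type LPS+ATP and listed at 0 in all 6 Nlrp3-/- libraries. Xist was 32.8 to 56.3 FPKM in Nlrp3-/- libraries and at most 0.0416 FPKM in wild-type libraries, while Ddx3y, Eif2s3y, Kdm5d and also Uty, genes of the Y chromosome, were detected in every wild-type library and in no Nlrp3-/- library. Genotype, sex of the donor mice and supplier therefore cannot be told apart for any difference between genotypes given here. All 9 macrophage markers had a mean of at least 1 FPKM in each group, and their levels are given beside Alox5ap. A depth of about 20100000 to 24400000 fragments per library was estimated from the spacing of low values, of which only 37.1% to 41.1% lay within 0.03 of a whole step, so fragment numbers are approximate.

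Under LPS+ATP, 7 of the 8 genes fell in wild-type BMDMs and Pla2g7 rose. The same split of 7 lower and 1 higher was called in Nlrp3-/- BMDMs. Of all tested genes, 53.1% were called lower and 23.3% higher in wild-type BMDMs, and 53.8% lower and 20.6% higher in Nlrp3-/- BMDMs. A change of 1 or more on the log2 scale was reached by 7 members in wild-type BMDMs, all but Ltb4r1, against 19.4% of all genes. In the Nlrp3-/- response 7 members reached it, all but Pla2g7, against 14.8% of all genes. Not every alternative scaling, filter or fit kept these counts. The weakest values over the alternatives were -0.83 (wild-type) and -0.87 (Nlrp3-/-) for Cysltr1, and -0.98 and -0.97 for Lta4h. The other members counted here reached the limit under every alternative. The median log2 fold change of the members was -1.41 in both genotypes, and that of all genes was -0.26 in wild-type and -0.24 in Nlrp3-/- BMDMs. Scaling the libraries by the median ratio of their genes moved the median of all genes by 0.25 and 0.23 in these comparisons, and the share of higher genes among those called went from 30.5% to 49.8% in wild-type and from 27.6% to 49.7% in Nlrp3-/- BMDMs. Under each scaling tried (TPM, upper-quartile and median-ratio), the 7 members still had negative and Pla2g7 a positive fold change in both genotypes, though the fall of Ltb4r1 in wild-type BMDMs no longer passed the test. In bulk RNA, fewer cells of a type and less RNA of a gene per cell cannot be told apart.

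**Figure D1:**
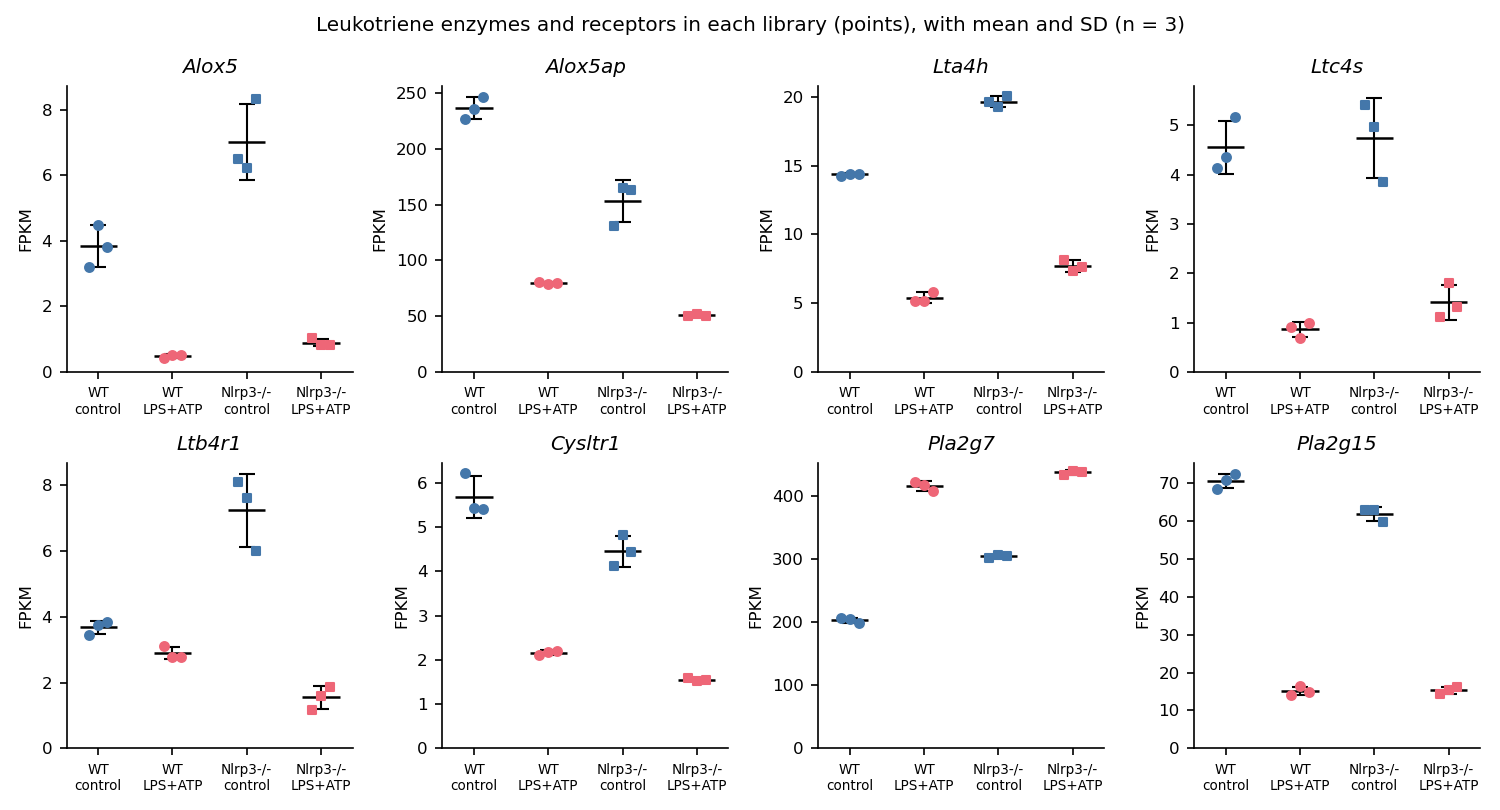
FPKM of the 8 genes (y axis, starting at 0, a separate scale for each gene) in the 4 groups (x axis). Points are single libraries, the horizontal line is the mean and the bars are the SD of 3 libraries. Alox5, Alox5ap, Lta4h, Ltc4s, Cysltr1 and Pla2g15 are lower with LPS+ATP in both genotypes, Pla2g7 is higher, and Ltb4r1 falls from a mean of 7.24 to 1.55 FPKM in Nlrp3-/- cells but from 3.68 to 2.90 FPKM in wild-type cells.

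Alox5 (ENSMUSG00000025701, chromosome 6 of GRCm38 from 116410077 to 116461178, minus strand) encodes the enzyme that commits arachidonic acid to leukotrienes. It was at 3.20, 4.496 and 3.82 FPKM in wild-type control libraries 1 to 3, and at 0.422, 0.502 and 0.522 FPKM with LPS+ATP. In Nlrp3-/- BMDMs it was at 6.51, 6.22 and 8.33 FPKM in control and at 1.019, 0.818 and 0.826 FPKM with LPS+ATP. All stimulated libraries lay below all control libraries, and in each state all Nlrp3-/- libraries lay above all wild-type libraries. The mean fell from 3.84 ± 0.648 to 0.482 ± 0.0530 FPKM (SD, n = 3) in wild-type BMDMs, 7.96-fold, with a log2 fold change of -1.70 (SE 0.11, limma adjusted p = 7.409e-08). Without Nlrp3 it fell from 7.02 ± 1.15 to 0.888 ± 0.114 FPKM (SD, n = 3), 7.91-fold, with a log2 fold change of -2.08 (SE 0.11, limma adjusted p = 1.653e-08). The ratio of the means was thus nearly equal in both genotypes. With a pseudocount of 0.1 in place of 1, the log2 fold change in wild-type BMDMs was -2.75. The stimulated wild-type values rest on about 32 to 38 fragments per library.

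Nlrp3-/- BMDMs had 1.83-fold more Alox5 than wild-type BMDMs in control, with a log2 fold change of 0.73 (SE 0.11, limma adjusted p = 0.0002425). With LPS+ATP the ratio was 1.84, with a log2 fold change of 0.35 (SE 0.11, limma adjusted p = 0.02394). The difference between both genotype effects was -0.38 on the log2 scale (SE 0.16, limma adjusted p = 0.101), or -0.09 with a pseudocount of 0.1. With the smaller pseudocount the effect under LPS+ATP was 0.76. Without wild-type LPS+ATP replicate 1 or Nlrp3-/- LPS+ATP replicate 1, the genotype effect under LPS+ATP missed the threshold (limma adjusted p = 0.07193 and 0.08259). Alox5 is also made by neutrophils. The 13 neutrophil markers summed to 619 to 642 FPKM in wild-type control, 412 to 430 in wild-type LPS+ATP, 2223 to 2259 in Nlrp3-/- control and 790 to 796 in Nlrp3-/- LPS+ATP, and none was at 0 in all libraries of a group. Of the 12 tested, 12 were called higher in Nlrp3-/- control BMDMs and 9 higher in Nlrp3-/- BMDMs with LPS+ATP. With LPS+ATP, 11 were called lower and 1, Lcn2, higher in each genotype. Lcn2 rose from a mean of 9.96 to 218 FPKM in wild-type and from 43.2 to 208 FPKM in Nlrp3-/- BMDMs, so it forms a large part of the stimulated sums. The part of these markers in the differences of the 8 genes was not tested.

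Alox5ap (ENSMUSG00000060063, chromosome 5 of GRCm38 from 149264767 to 149288153, plus strand) encodes FLAP, which presents arachidonic acid to 5-lipoxygenase. It was at 227, 235 and 247 FPKM in wild-type control libraries and at 80.7, 78.8 and 79.5 FPKM with LPS+ATP. Without Nlrp3 it was at 131, 165 and 164 FPKM in control and at 50.0, 51.6 and 50.2 FPKM with LPS+ATP. The 4 groups did not overlap, and the order ran from wild-type control down through Nlrp3-/- control and wild-type LPS+ATP to Nlrp3-/- LPS+ATP. Stimulation lowered the mean 2.97-fold in wild-type BMDMs, from 236 ± 9.77 to 79.7 ± 0.979 FPKM (SD, n = 3), with a log2 fold change of -1.56 (SE 0.07, limma adjusted p = 3.587e-09). It lowered the mean 3.03-fold in Nlrp3-/- BMDMs, from 153 ± 19.2 to 50.6 ± 0.889 FPKM (SD, n = 3), with a log2 fold change of -1.57 (limma adjusted p = 4.4e-09).

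Alox5ap was lower in Nlrp3-/- than in wild-type BMDMs in both states, opposite in direction to Alox5. The mean was 1.54-fold lower in control, with a log2 fold change of -0.63 (SE 0.07, limma adjusted p = 2.556e-05), and 1.57-fold lower with LPS+ATP, with a log2 fold change of -0.64 (limma adjusted p = 2.265e-05). The interaction of genotype and stimulation was -0.02 (95% interval -0.24 to 0.21, limma adjusted p = 0.9335). Macrophage markers also differed. In control, 5 of the 9 were called lower in Nlrp3-/- BMDMs (Cd68, Csf1r, Fcgr1, Adgre1 and Cd14) and 0 higher, with log2 fold changes of -0.73 for Cd68 and -0.62 for Csf1r. With LPS+ATP, 4 were called lower (Adgre1, Fcgr1, Cd68 and Mertk). The 9 markers summed to 20030 to 21210 FPKM in wild-type control, 19120 to 19370 in Nlrp3-/- control, 11800 to 11870 in wild-type LPS+ATP and 11130 to 11370 in Nlrp3-/- LPS+ATP. Most of each sum was Lyz2, with means of 18460, 17690, 9471 and 9309 FPKM in the same order, so the sums say little of the other markers. With stimulation, 5 markers fell and 3 rose in wild-type BMDMs and 4 fell and 4 rose in Nlrp3-/- BMDMs. Their part in the lower Alox5ap and Cysltr1 of Nlrp3-/- BMDMs, or in the response to LPS+ATP, was not tested. In every library Alox5ap was far above Alox5, with means of 236 against 3.84 FPKM in wild-type control and 50.6 against 0.888 FPKM in Nlrp3-/- LPS+ATP.

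Lta4h (ENSMUSG00000015889, chromosome 10 of GRCm38 from 93453411 to 93484875, plus strand) encodes the hydrolase that makes leukotriene B4. It was at 14.3, 14.4 and 14.4 FPKM in wild-type control libraries and at 5.15, 5.15 and 5.84 FPKM with LPS+ATP. The Nlrp3-/- BMDMs had 19.6, 19.2 and 20.03 FPKM in control and 8.15, 7.31 and 7.65 FPKM with LPS+ATP. The groups did not overlap, and the Nlrp3-/- libraries lay above the wild-type libraries of the same state, as for Alox5. Lta4h fell 2.67-fold with LPS+ATP in wild-type BMDMs, with means of 14.4 ± 0.0778 and 5.38 ± 0.396 FPKM (SD, n = 3) and a log2 fold change of -1.27 (SE 0.05, limma adjusted p = 8.234e-10). It fell 2.55-fold in Nlrp3-/- BMDMs, with means of 19.6 ± 0.391 and 7.70 ± 0.422 FPKM (SD, n = 3) and a log2 fold change of -1.25 (limma adjusted p = 1.33e-09). The genotype effect was 1.37-fold in control, a log2 fold change of 0.43 (SE 0.05, limma adjusted p = 2.981e-05), and 1.43-fold under stimulation, a log2 fold change of 0.45 (limma adjusted p = 2.139e-05). The interaction was 0.02 (95% interval -0.14 to 0.18, limma adjusted p = 0.8587).

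Ltc4s (ENSMUSG00000020377, chromosome 11 of GRCm38 from 50236461 to 50238616, minus strand) encodes the synthase on the cysteinyl branch. It was at 4.14, 4.36 and 5.16 FPKM in wild-type control libraries and at 0.915, 0.682 and 0.985 FPKM with LPS+ATP. Among Nlrp3-/- libraries it was at 5.42, 4.97 and 3.85 FPKM in control and at 1.11, 1.80 and 1.32 FPKM with LPS+ATP. The control libraries of both genotypes overlapped, whereas the stimulated Nlrp3-/- libraries all lay above the stimulated wild-type libraries. Ltc4s fell 5.29-fold in wild-type BMDMs, from 4.55 ± 0.538 to 0.861 ± 0.159 FPKM (SD, n = 3), with a log2 fold change of -1.58 (SE 0.13, limma adjusted p = 5.422e-07). It fell 3.36-fold in Nlrp3-/- BMDMs, from 4.75 ± 0.811 to 1.41 ± 0.356 FPKM (SD, n = 3), with a log2 fold change of -1.25 (SE 0.13, limma adjusted p = 4.761e-06).

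Between genotypes, the control means of Ltc4s had a log2 fold change of 0.04 (95% interval -0.24 to 0.33, limma adjusted p = 0.8145). With LPS+ATP the mean was 1.64-fold higher in Nlrp3-/- BMDMs, with a log2 fold change of 0.37 (SE 0.13, limma adjusted p = 0.03638), or 0.64 with a pseudocount of 0.1. That call was lost with the replicate number as a block (limma adjusted p = 0.06192) and after median-ratio or upper-quartile scaling (limma adjusted p = 0.09603 and 0.07266). It was also lost without wild-type LPS+ATP replicate 1 or 2 (limma adjusted p = 0.06118 and 0.1235) and without Nlrp3-/- LPS+ATP replicate 2 or 3 (0.1401 and 0.06156). The stimulated wild-type values rest on about 10 to 14 fragments per library, for which counting alone gives a coefficient of variation of 31.8% at the lowest. Ltc4s overlaps the antisense gene Gm26542, which was at most 0.272 FPKM, and the sources do not say whether strand was used in counting. Mast cells, basophils and eosinophils are known to express this synthase. The 12 mast cell and basophil markers summed to 3.91 to 4.23 FPKM in wild-type control and 17.5 to 19.8 FPKM in Nlrp3-/- control, with Cma1, Mcpt4 and Tpsb2 at 0 in all libraries. Under LPS+ATP they summed to 4.81 to 5.06 FPKM in wild-type libraries, against 7.23 to 7.67 FPKM in those lacking Nlrp3. Hdc, which rose from 0.115 to 3.38 FPKM in wild-type BMDMs, formed most of the stimulated wild-type sum. Of the 5 tested, 4 were called lower and 1 higher with LPS+ATP in wild-type BMDMs. The 7 eosinophil markers summed to 4.92 to 5.31 FPKM in wild-type control and 15.6 to 16.1 FPKM in Nlrp3-/- control, against 2.49 to 3.12 and 3.12 to 3.73 FPKM with LPS+ATP. Of the 3 eosinophil markers tested, 3 were called higher in Nlrp3-/- control BMDMs, and 0 differed by call between genotypes with LPS+ATP. The part of these cell types in the Ltc4s values was not tested.

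**Figure D2:**
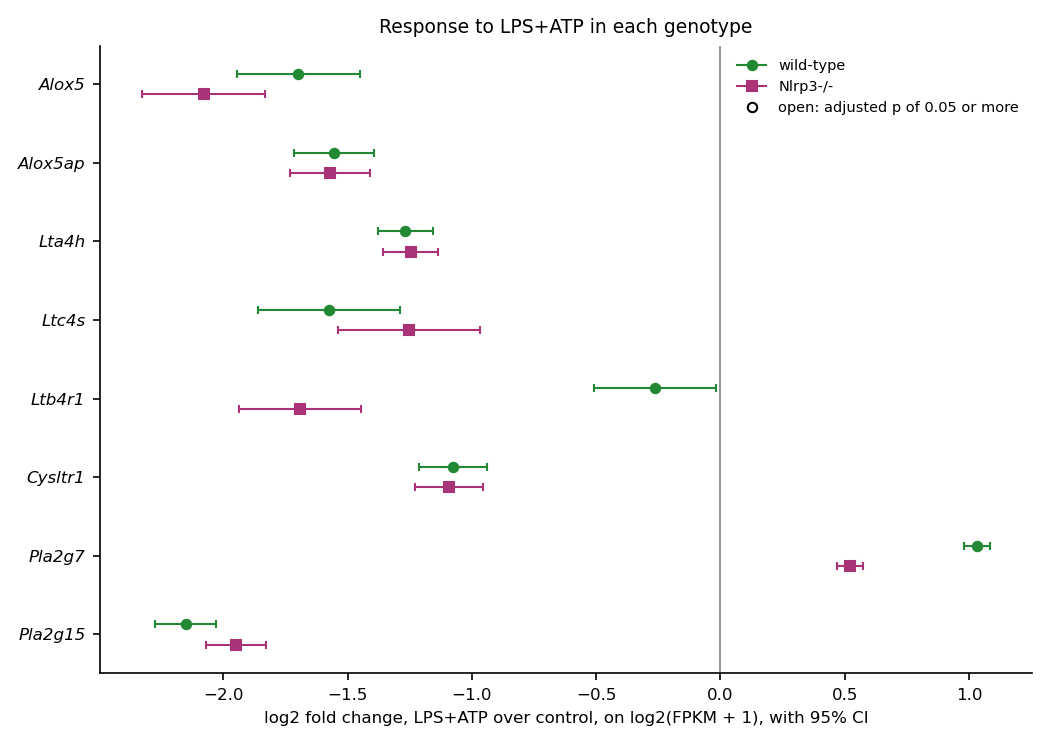
Log2 fold change of the 8 genes with LPS+ATP over control (x axis, on log2(FPKM + 1)) in wild-type (green circles) and Nlrp3-/- BMDMs (purple squares), with 95% confidence intervals from limma. The genes are on the y axis. The intervals of both genotypes overlap for Alox5, Alox5ap, Lta4h, Ltc4s, Cysltr1 and Pla2g15, and stand apart for Ltb4r1 (-0.26 and -1.69) and Pla2g7 (1.03 and 0.52).

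Ltb4r1 (ENSMUSG00000046908, chromosome 14 of GRCm38 from 55765962 to 55768494, plus strand) encodes BLT1, the high-affinity receptor of leukotriene B4. It was at 3.45, 3.76 and 3.84 FPKM in wild-type control libraries and at 3.12, 2.79 and 2.79 FPKM with LPS+ATP. Its values in Nlrp3-/- BMDMs were 8.10, 7.62 and 5.995 FPKM in control and 1.18, 1.603 and 1.86 FPKM with LPS+ATP. The Nlrp3-/- libraries were thus above all wild-type libraries without stimulation and below all of them with it. In wild-type BMDMs the means were 3.68 ± 0.208 and 2.90 ± 0.190 FPKM (SD, n = 3), 1.27-fold lower with LPS+ATP, with a log2 fold change of -0.26 (SE 0.11, limma adjusted p = 0.04956). That value lay at the threshold: its adjusted p ran from 0.008459 to 0.9345 over the alternatives, and the call was lost without any 1 of the 6 wild-type libraries, Nlrp3-/- control replicate 2 or Nlrp3-/- LPS+ATP replicate 2 (limma adjusted p from 0.05291 to 0.1199). The mean fell 4.68-fold in Nlrp3-/- BMDMs, from 7.24 ± 1.10 to 1.55 ± 0.342 FPKM (SD, n = 3), with a log2 fold change of -1.69 (SE 0.11, limma adjusted p = 9.51e-08).

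In control, Ltb4r1 was 1.97-fold higher in Nlrp3-/- than in wild-type BMDMs, with a log2 fold change of 0.81 (SE 0.11, limma adjusted p = 0.0001053). With LPS+ATP it was 1.88-fold lower, with a log2 fold change of -0.62 (SE 0.11, limma adjusted p = 0.0007358). The genotype effects had opposite signs under each scaling tried, and each passed the test there. The interaction was -1.43 (SE 0.16, 95% interval -1.78 to -1.08, limma adjusted p = 6.033e-05), and with each library left out in turn it stayed between -1.54 and -1.32. The stimulated Nlrp3-/- values rest on about 33 to 53 fragments per library. Neutrophils also carry this receptor, and the summed neutrophil markers, given with Alox5, were higher in Nlrp3-/- BMDMs in both states. Their part in the Ltb4r1 values was not tested.

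Cysltr1 (ENSMUSG00000052821, chromosome X of GRCm38 from 106574346 to 106603679, minus strand) encodes the receptor for cysteinyl leukotrienes that the antagonist montelukast blocks. It was at 6.23, 5.42 and 5.401 FPKM in wild-type control libraries and at 2.10, 2.18 and 2.21 FPKM with LPS+ATP. For Nlrp3-/- BMDMs it was at 4.12, 4.82 and 4.44 FPKM in control and at 1.59, 1.52 and 1.55 FPKM with LPS+ATP. The groups did not overlap, and the Nlrp3-/- libraries lay below the wild-type libraries of the same state, as for Alox5ap. It fell 2.63-fold in wild-type BMDMs, from 5.68 ± 0.470 to 2.16 ± 0.0578 FPKM (SD, n = 3), with a log2 fold change of -1.08 (SE 0.06, limma adjusted p = 2.223e-08). It fell 2.87-fold in Nlrp3-/- BMDMs, from 4.46 ± 0.350 to 1.55 ± 0.0350 FPKM (SD, n = 3), with a log2 fold change of -1.09 (limma adjusted p = 2.613e-08). The genotype log2 fold change was -0.29 in control (SE 0.06, limma adjusted p = 0.002411) and -0.31 with LPS+ATP (limma adjusted p = 0.001618). The interaction was -0.02 (95% interval -0.21 to 0.18, limma adjusted p = 0.9128). The gene lies on chromosome X, and the sex of the donor mice changed with genotype. Cysltr1 overlaps Gm5127 on the opposite strand, which was at most 0.321 FPKM.

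Pla2g7 (ENSMUSG00000023913, chromosome 17 of GRCm38 from 43568098 to 43612201, plus strand) encodes the lipoprotein-associated phospholipase A2, which macrophages secrete and which breaks down platelet-activating factor and oxidized phospholipids. It was at 207, 205 and 199 FPKM in wild-type control libraries and at 423, 419 and 408 FPKM with LPS+ATP. The level in Nlrp3-/- BMDMs was 302, 307 and 306 FPKM in control and 434, 441 and 439 FPKM with LPS+ATP. The groups did not overlap, although the stimulated libraries of both genotypes lay close together. The mean rose 2.05-fold in wild-type BMDMs, from 203 ± 4.24 to 417 ± 7.63 FPKM (SD, n = 3), with a log2 fold change of 1.03 (SE 0.02, limma adjusted p = 6.613e-12). It rose 1.44-fold in Nlrp3-/- BMDMs, from 305 ± 2.18 to 438 ± 3.52 FPKM (SD, n = 3), with a log2 fold change of 0.52 (limma adjusted p = 3.415e-09).

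Pla2g7 was 1.5-fold higher in Nlrp3-/- than in wild-type control BMDMs, with a log2 fold change of 0.58 (SE 0.02, limma adjusted p = 4.18e-09). With LPS+ATP the ratio was 1.05, with a log2 fold change of 0.07 (limma adjusted p = 0.02494), and this value changed sign to -0.12 after median-ratio scaling (limma adjusted p = 0.002223). The call under LPS+ATP was lost without wild-type LPS+ATP replicate 3 (limma adjusted p = 0.09777), Nlrp3-/- LPS+ATP replicate 2 (0.0755) or Nlrp3-/- LPS+ATP replicate 3 (0.06653). It was also lost in a fit with no variance trend (limma adjusted p = 0.1068) and with no filter on low values (limma adjusted p = 0.05944). The interaction was -0.51 (SE 0.03, 95% interval -0.58 to -0.44, limma adjusted p = 1.457e-06), and it ran from -0.56 to -0.49 over all alternatives. Pla2g7 overlaps the antisense gene 1700071M16Rik, which was at most 6.16 FPKM.

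Pla2g15 (ENSMUSG00000031903, chromosome 8 of GRCm38 from 106150399 to 106164715, plus strand) encodes the phospholipase that degrades phospholipids in the lysosome. It was at 68.5, 70.9 and 72.4 FPKM in wild-type control libraries and at 14.2, 16.3 and 14.8 FPKM with LPS+ATP. In Nlrp3-/- BMDMs it was at 63.0, 62.8 and 59.8 FPKM in control and at 14.3, 15.3 and 16.3 FPKM with LPS+ATP. The stimulated libraries of both genotypes overlapped, and the control libraries of Nlrp3-/- BMDMs lay just below those of wild-type BMDMs. Pla2g15 fell 4.67-fold in wild-type BMDMs, from 70.6 ± 1.96 to 15.1 ± 1.10 FPKM (SD, n = 3), with a log2 fold change of -2.15 (SE 0.06, limma adjusted p = 1.864e-11). It fell 4.05-fold in Nlrp3-/- BMDMs, from 61.9 ± 1.79 to 15.3 ± 0.962 FPKM (SD, n = 3), with a log2 fold change of -1.95 (limma adjusted p = 5.857e-11). In control it was 1.14-fold lower in Nlrp3-/- BMDMs, with a log2 fold change of -0.19 (limma adjusted p = 0.01664), a call lost without wild-type control replicate 3 or Nlrp3-/- control replicate 3 (limma adjusted p = 0.05641 and 0.06173). With LPS+ATP the log2 fold change between genotypes was 0.02 (95% interval -0.11 to 0.14, limma adjusted p = 0.8437), and it was -0.17 after median-ratio scaling (limma adjusted p = 0.03115). The interaction was 0.20 (SE 0.08, limma adjusted p = 0.08015), and it passed the test without wild-type LPS+ATP replicate 2 or Nlrp3-/- LPS+ATP replicate 1 (limma adjusted p = 0.02413 and 0.04232).

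Across genotypes, the members split in direction. In control BMDMs, 4 were higher in Nlrp3-/- cells (Alox5, Lta4h, Ltb4r1 and Pla2g7), 3 were lower (Alox5ap, Cysltr1 and Pla2g15) and Ltc4s was not called, while 33.3% of all genes were called higher and 14.5% lower. With LPS+ATP, 4 were higher (Alox5, Lta4h, Ltc4s and Pla2g7), 3 were lower (Alox5ap, Ltb4r1 and Cysltr1) and Pla2g15 was not called, while 35.9% of all genes were called higher and 12.6% lower. None of the 8 reached a log2 fold change of 1 in size between genotypes in limma, against 6.71% of all genes in control and 5.05% with LPS+ATP. The median of the members was 0.23 in control and 0.04 with LPS+ATP, beside 0.09 and 0.11 over all genes. Median-ratio scaling moved the median of all genes by -0.12 and -0.15, and the share of higher genes among those called went from 69.6% to 44.5% in control and from 74.0% to 45.6% with LPS+ATP. After that scaling, the signs of Alox5, Alox5ap, Lta4h, Ltb4r1 and Cysltr1 were kept in both states, whereas Pla2g7 and Pla2g15 were negative with LPS+ATP and Ltc4s was negative in control.

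The interaction asks whether the response to LPS+ATP differed between genotypes. It was called for 2 of the 8 genes, Ltb4r1 and Pla2g7, both negative, while 13.0% of all genes had a negative and 14.7% a positive interaction. Ltb4r1 alone among the members reached 1 in size, against 2.15% of all genes. The median of the members was -0.02 and that of all genes 0.02. The interaction of Alox5 had a 95% interval from -0.73 to -0.03 before adjustment over all genes, and it passed the adjusted threshold without wild-type control replicate 2 (limma adjusted p = 0.04361). That of Ltc4s was 0.32 (95% interval -0.08 to 0.73, limma adjusted p = 0.2272). Which of these was larger depended on the pseudocount, since at 0.1 the interaction was -0.09 for Alox5 and 0.59 for Ltc4s, neither of them called.

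**Figure D3:**
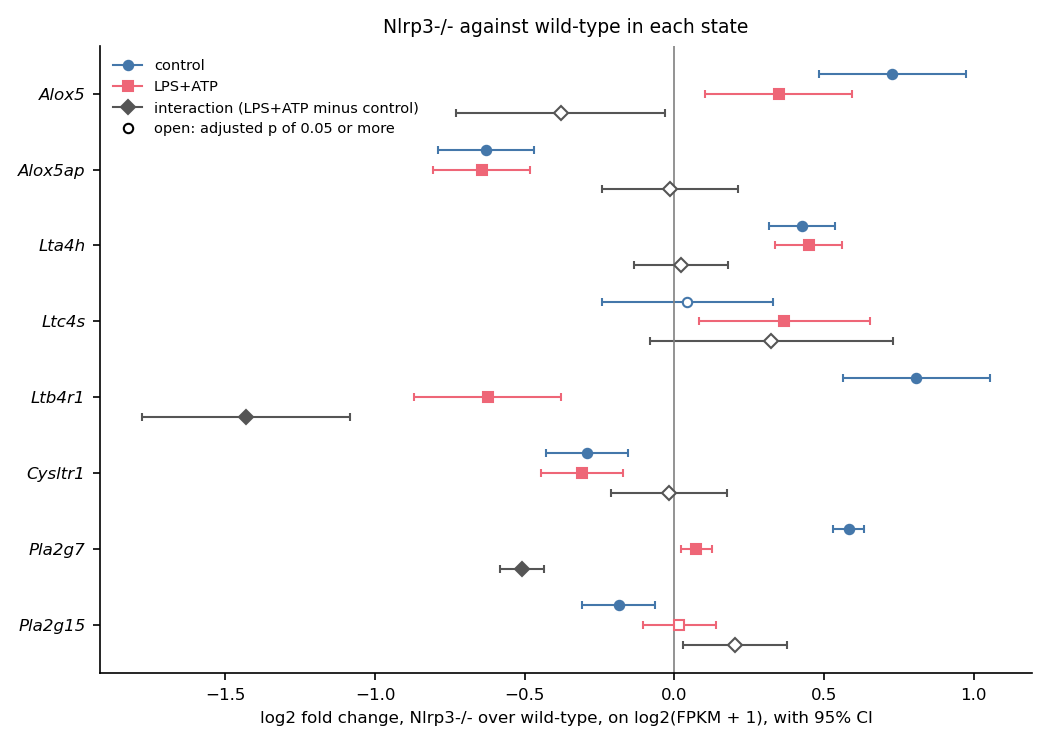
Log2 fold change of the 8 genes in Nlrp3-/- over wild-type BMDMs (x axis, on log2(FPKM + 1)) in control (blue circles) and with LPS+ATP (red squares), and the difference of both (grey diamonds), with 95% confidence intervals from limma. Open symbols have an adjusted p of 0.05 or more. Ltb4r1 lies at 0.81 in control and at -0.62 with LPS+ATP, while Alox5ap, Lta4h and Cysltr1 have nearly the same value in both states.

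In order of mean FPKM, Alox5ap (236), Pla2g7 (203), Pla2g15 (70.6) and Lta4h (14.4) led in wild-type control, and Cysltr1 (5.68), Ltc4s (4.55), Alox5 (3.84) and Ltb4r1 (3.68) followed. The libraries of Ltc4s overlapped those of Alox5, and those of Alox5 overlapped those of Ltb4r1. In the other 3 groups Pla2g7 came first and Alox5ap second. Alox5 came last in both stimulated groups, with means of 0.482 FPKM (wild-type) and 0.888 FPKM (Nlrp3-/-). Neighbours in the order overlapped in Nlrp3-/- control (Ltb4r1 with Alox5, Ltc4s with Cysltr1) and in Nlrp3-/- LPS+ATP (Cysltr1 with Ltb4r1, Ltb4r1 with Ltc4s), and none overlapped in wild-type LPS+ATP.

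The members also paired off in their pattern over the 12 libraries, which fall into only 4 groups, so the correlations mostly follow group means. Pearson's r of log2(FPKM + 1) was 0.987 between Alox5 and Lta4h and 0.987 between Alox5ap and Cysltr1. Pla2g7 was negatively correlated with each of the other 7, from -0.95 with Alox5ap to -0.50 with Ltb4r1. Among all tested genes, the patterns most like Alox5 were those of Plxna2 (r = 0.994), Ilkap and Sned1. Those most like Alox5ap were Snx1 (r = 0.997), Gabarap and Pld4, those most like Lta4h were Polh (r = 0.996), Rhob and Sept6, and those most like Ltc4s were Lman2l (r = 0.989), Ldb1 and Ifngr1. Cysltr1 was most like Igf1 (r = 0.997), Slc29a3 and Nceh1, Pla2g7 most like Tmem2 (r = 0.998), Tmeff1 and Sgk1, and Pla2g15 most like Cd9 (r = 0.998), 6430548M08Rik and Lpar6. Ltb4r1 had the lowest best match, with Dennd2a (r = 0.956), Clec1b (r = 0.940) and Cavin2 (r = 0.934).

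Of 31 other genes listed for the pathway, from arachidonic acid release to leukotriene export, breakdown and sensing, 17 passed the filter, and the highest value among the other 14 was 0.869 FPKM. The second leukotriene B4 receptor gene Ltb4r2 and the lipoxygenase gene Alox15 were among the 14, and Alox12b, Cyp4f15 and Oxgr1 were listed at 0 in all libraries. In wild-type BMDMs, 6 of the 17 rose with LPS+ATP, 7 fell and 4 were not called, with a median log2 fold change of -0.16, beside the 53.1% lower and the median of -0.26 over all genes. In Nlrp3-/- BMDMs, 4 rose, 10 fell and 3 were not called, with a median of -0.69, beside 53.8% and -0.24 over all genes.

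Upstream of Alox5, the cytosolic phospholipase A2 gene Pla2g4a, which releases arachidonic acid, rose from 5.76 to 23.3 FPKM in wild-type BMDMs, and in the absence of Nlrp3 from 7.93 to 19.8 FPKM. Its log2 fold changes were 1.85 and 1.22 (limma adjusted p = 1.227e-11 and 6.219e-10). The related Pla2g4c rose by 1.00 and 1.92 on the log2 scale, from control means of 0.1455 (wild-type) and 0.358 FPKM (Nlrp3-/-). By the ratio of mean FPKM it rose 8.9-fold and 11.5-fold. Pla2g16, which encodes a phospholipase of the cytosol and membranes, rose by 2.42 and 1.81 on the log2 scale, 9.2-fold and 4.6-fold by mean FPKM. Pla2g4a and Alox5, which encode consecutive steps, thus moved in opposite directions. Coactosin-like protein, encoded by Cotl1, is a binding partner of 5-lipoxygenase, and its gene fell with log2 fold changes of -1.66 (wild-type) and -1.46 (Nlrp3-/-).

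On the branches after leukotriene A4, the glutathione transferase genes Mgst2 and Mgst3, relatives of Ltc4s, fell as Ltc4s did. Mgst3 fell from 27.0 to 2.61 FPKM in wild-type BMDMs and from 14.3 to 2.30 FPKM where Nlrp3 was absent, with log2 fold changes of -2.96 and -2.22. Mgst2 had log2 fold changes of -0.55 and -1.16, falling 2.02-fold and 3.24-fold by mean FPKM. The transporter genes Abcc1 and Abcc4, whose products carry leukotrienes out of the cell, rose in both genotypes, Abcc1 by 1.15 and 1.18 and Abcc4 by 1.40 and 1.601 on the log2 scale. Ptgr1, which encodes an enzyme that inactivates leukotriene B4, rose by 1.31 and 0.94. Of the membrane dipeptidases that trim leukotriene D4, Dpep2 fell by 0.95 and by 1.03 and Dpep3 fell by 0.83 and by 1.43. By mean FPKM, Dpep3 fell 7.89-fold from 1.01 FPKM in wild-type and 35.7-fold from 1.845 FPKM in Nlrp3-/- BMDMs. Dpep1 had log2 fold changes of -0.16 in wild-type, not called, and -0.41 in Nlrp3-/- BMDMs. It was higher in Nlrp3-/- than in wild-type cells by 1.51 in control and 1.26 with LPS+ATP, 4.18-fold and 3.63-fold by mean FPKM. Alox12, a platelet-type lipoxygenase gene, rose in wild-type BMDMs (log2 fold change 0.36) and fell in Nlrp3-/- BMDMs (-0.78). By mean FPKM the rise was 1.55-fold and the fall 2.44-fold.

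**Figure D4:**
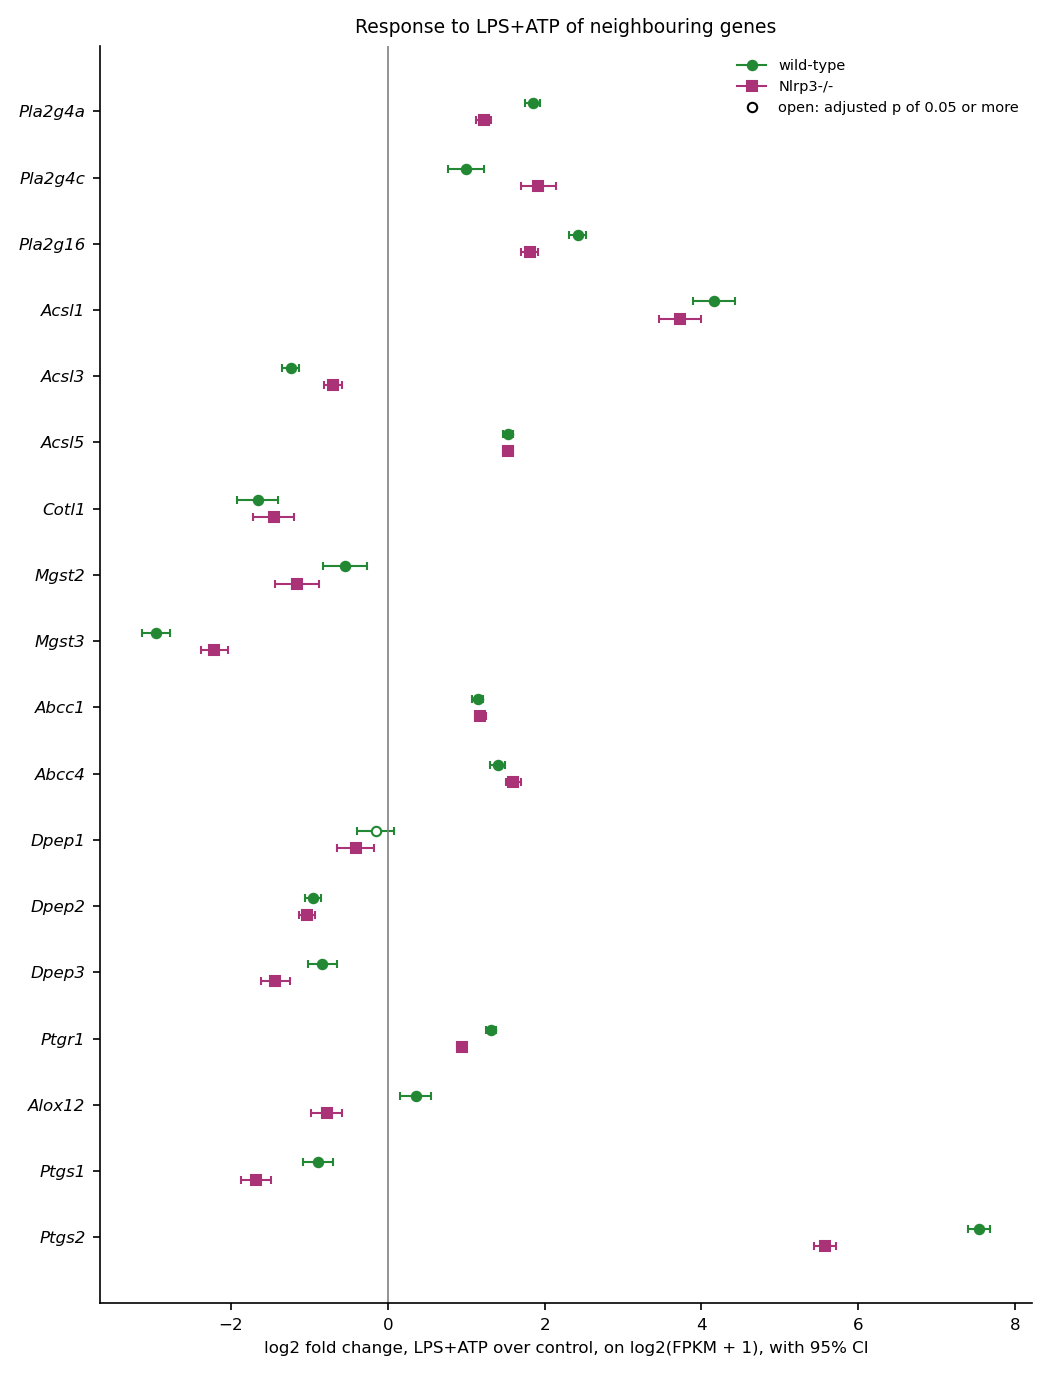
Log2 fold change with LPS+ATP over control (x axis, on log2(FPKM + 1)) of other genes of arachidonic acid handling (y axis) in wild-type (green circles) and Nlrp3-/- BMDMs (purple squares), with 95% confidence intervals from limma. The open circle marks an adjusted p of 0.05 or more. Pla2g4a, Acsl1, Abcc1, Abcc4 and Ptgs2 lie to the right of 0 in both genotypes and Cotl1, Mgst3 and Ptgs1 to the left.

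Of 24 other phospholipase A2 and arachidonate recycling genes, 10 passed the filter. In wild-type BMDMs 5 rose, 2 fell and 3 were not called, and in Nlrp3-/- BMDMs 4 rose, 2 fell and 4 were not called. Of all tested genes, 23.3% rose and 53.1% fell in wild-type BMDMs, and 20.6% rose and 53.8% fell in Nlrp3-/- BMDMs. Among the acyl-CoA synthetases that return fatty acids to lipids, Acsl1 rose by 4.16 (wild-type) and 3.73 (Nlrp3-/-) on the log2 scale and Acsl5 rose by 1.54 and 1.53, whereas Acsl3 had log2 fold changes of -1.24 and -0.70, a fall in each genotype. All 7 genes of platelet-activating factor metabolism passed the filter, which are the context of the rise of Pla2g7. Of these, 3 rose, 3 fell and 1 was not called in wild-type BMDMs, and 2 rose, 4 fell and 1 was not called in Nlrp3-/- BMDMs. None of them reached a log2 fold change of 1 in size, against 19.4% and 14.8% of all genes. The cyclooxygenase genes, whose enzymes compete for arachidonic acid, moved apart: Ptgs2 rose from 0.327 to 245 FPKM (wild-type) and from 2.49 to 166 FPKM (Nlrp3-/-), while Ptgs1 fell from 6.80 to 3.20 and from 12.7 to 3.27 FPKM.

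Between genotypes, 10 of the 17 pathway genes were higher and 4 lower in Nlrp3-/- control BMDMs, with a median of 0.14, beside 33.3% and 14.5% of all genes. With LPS+ATP, 5 of the 17 were higher and 6 lower, with a median of -0.10, beside 35.9% and 12.6% of all genes. The interaction was positive for 2 and negative for 7 of the 17, beside 14.7% and 13.0% of all genes. Those of the 17 that reached a log2 fold change of 1 in size in either genotype comparison or in the interaction were Dpep1 and Alox12. Fibroblast markers also moved with genotype, all 7 being called higher in Nlrp3-/- BMDMs in both states, with sums of 162 to 168 FPKM in wild-type control, 191 to 194 FPKM in wild-type LPS+ATP, 1188 to 1205 FPKM in Nlrp3-/- control and 927 to 942 FPKM in Nlrp3-/- LPS+ATP. Their part in the genotype differences of the leukotriene genes was not tested.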

How the data were processed

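Total RNA of BMDMs was made into libraries with an Illumina TruSeq kit by the authors, who deposited FPKM for 55335 genes in 12 libraries. The submitters' processing notes name GRCm39, and the aligner, annotation and counting are not given in the sources used here. Columns were matched to samples by their library names, and 0 value columns were left unused. The 12622 genes that reached an FPKM of 1 in 3 or more libraries entered limma 3.58.1 (R 4.3.3) as log2(FPKM + 1), with a variance trend, 1 mean per group and Benjamini-Hochberg adjustment, after the fit was tested on simulated data. FPKM is no count, so no count test was run. Groups came from the sample labels. The 8 genes, the lists and the markers were chosen with earlier results of these data known. The result of 1 macrophage marker is not reported here. Named were all members, Nlrp3, list genes called at the 0.05 threshold that changed by 1 or more on the log2 scale in any comparison, Pla2g4a, Ptgs2, and the 3 genes most correlated with each member. Gene positions came from GENCODE M21 on GRCm38, and no position was carried between builds. Of the identifiers, 55154 were in that release. At 95% identity, blastn 2.17.0+ found 0 near copies of the members. Fragment numbers assume the longest transcript. Alternatives were a pseudocount of 0.1, no filter, FPKM of at least 5, fits without the trend, on the compared groups only, with a replicate block or with each library left out, and scaling to TPM, by median ratio or by upper quartile. Python 3.11.15 and matplotlib 3.10.9 made tables and plots.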

Additional observations from a re-analysis of the deposited data

Results flagged for a closer look

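The effect of genotype differed between control and LPS+ATP, by the interaction in limma over all tested genes, for 17 genes of the lists. The lists held 8 member, 17 pathway, 10 phospholipase, 7 platelet-activating factor and 2 cyclooxygenase genes that were tested. Of all tested genes, 14.7% had a positive and 13.0% a negative interaction. Among the leukotriene members it was called for Ltb4r1, with an interaction of -1.43 on the log2 scale (adjusted p = 6.033e-05), and for Pla2g7, with -0.51 (adjusted p = 1.457e-06). The Ltb4r1 value came from libraries of Nlrp3-/- BMDMs that were all higher than wild-type in control and all lower with LPS+ATP. The Pla2g7 value came with a genotype log2 fold change of 0.58 in control and 0.07 with LPS+ATP.

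Of the other genes, the interaction was negative for Ptgs2 (-1.96), Alox12 (-1.13), Ptgs1 (-0.79), Pla2g4a (-0.62), Pla2g16 (-0.61), Mgst2 (-0.61), Dpep3 (-0.60), Cyp4f17 (-0.49), Cysltr2 (-0.41) and Ptgr1 (-0.37). It was positive for Pla2g4c (0.92), Mgst3 (0.74), Acsl3 (0.54), Lpcat1 (0.48) and Abcc4 (0.20). Of these, 3 (Cyp4f17, Cysltr2 and Lpcat1) lie outside the rule for named genes and were named after their values were seen. For Alox12, as for Ltb4r1, the libraries of both genotypes changed order, with control means of 1.08 (wild-type) and 2.37 FPKM (Nlrp3-/-) against 1.66 and 0.972 FPKM with LPS+ATP. The sex of the donor mice changed with genotype for each of these values. The interactions are on log2(FPKM + 1) and depend on the pseudocount where a group mean lies near or below 1 FPKM. Pla2g4c had control means of 0.1455 (wild-type) and 0.358 FPKM (Nlrp3-/-) and rose 8.9-fold and 11.5-fold by mean FPKM. Ptgs2 was at 0.327 FPKM in wild-type control, and Dpep3 was at 0.128 and 0.0517 FPKM with LPS+ATP. No other pseudocount is given for these 3 genes.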

How the results depend on the processing

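Of 827 values of the members under alternatives, 772 kept their direction and side of the threshold, 32 lost the call, 3 gained it and 20 changed sign. In the Nlrp3-/- response, 0 of 167 changed. With no filter, 4 members were called between genotypes under LPS+ATP in place of 7. With each library left out, the members called numbered 7 to 8 for the wild-type response, 8 to 8 for the Nlrp3-/- response, 6 to 7 between genotypes in control, 5 to 7 with LPS+ATP and 2 to 3 for the interaction. Signs changed only where the value of the main fit lay near 0. Among them, Pla2g7 with LPS+ATP was called in the main fit and called with the opposite sign after median-ratio scaling. Pla2g15 with LPS+ATP, not called in the main fit, was called after that scaling. In control, Ltc4s was -0.082 between genotypes after median-ratio and -0.016 after upper-quartile scaling, and -0.042 to 0.16 with libraries left out. With LPS+ATP, Pla2g7 was -0.12 and -0.048 and Pla2g15 -0.17 and -0.098 after these scalings, and Pla2g15 was -0.027 to 0.069 with libraries left out. The interaction of Lta4h was -0.010 after upper-quartile scaling, and with libraries left out it was -0.015 to 0.073, that of Alox5ap -0.12 to 0.041 and that of Cysltr1 -0.075 to 0.029. The cause was not tested. The wild-type fall of Ltb4r1 lost its call under a pseudocount of 0.1 (-0.33), TPM (-0.27), upper-quartile (-0.13) and median-ratio scaling (-0.01), with no filter and under the replicate block.

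The deviations of same-numbered libraries from their group means had r from -0.0565 to 0.0528 over 18 pairs. Those of differently numbered libraries had r from -0.0687 to 0.0991 over 36 pairs. No sign of pairing by number was seen, but 3 libraries per group cannot exclude it. With the replicate block, 7 members were called in the wild-type response in place of 8, and 6 between genotypes with LPS+ATP in place of 7, the calls lost being those of Ltb4r1 (adjusted p = 0.07699) and Ltc4s (adjusted p = 0.06192) by limma. It changed no other call of a member. Depth limits Ltc4s, Alox5 and Ltb4r1 under LPS+ATP, with as few as about 10, 32 and 33 fragments per library.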
